A study of Mus musculus with 8 samples.

Results

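ABC transporters are membrane proteins that use ATP, bound by their namesake ATP-binding cassettes, to move drugs, sterols, lipids, conjugates and metal compounds across membranes. In the intestinal epithelium, pumps on the luminal side return drugs, plant sterols and cholesterol to the lumen, and pumps on the blood side pass conjugates, bile acids and cholesterol onward. The family also holds transporters of mitochondria, lysosomes and peroxisomes, and the ABCE and ABCF proteins, which have the cassettes but no membrane part and act on ribosomes. The genes described here are the protein-coding genes whose symbols begin with Abca, Abcb, Abcc, Abcd, Abce, Abcf or Abcg followed by a number. This rule found 50 genes of 20229 protein-coding genes and of 40178 genes in all. Subfamily A holds 16 of them, B 10, C 10, D 4, E 1, F 3 and G 6. The colon table lists 46 of the 50 genes, and the other 4 (Abca6, Abca16, Abcb5 and Abcc12), which the ileum table lists, were counted as 0 in the colon.

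RNAseq was performed on intestinal epithelial cells (IECs) that EDTA released from the colon and the ileum of mice 8 weeks old. The WT mice were DDX5(+/+) and the DDX5-deficient mice, called DDX5ΔIEC here, DDX5(fl/fl), and both carried Vil1Cre(+), a Cre recombinase that the Villin1 promoter drives in the gut epithelium, so that other cells in the fraction keep the gene. There were 2 mice of each genotype. Each mouse gave a library of both tissues, which carry its replicate number, so that there are 8 libraries with 2 in each group. Few mice therefore stand behind each p-value. The tests between genotypes compared libraries within a replicate number, so their spread is how the genotype difference varied between the 2 replicate numbers. The tests between tissues and of the interaction pooled the spread within all groups over the 8 libraries. Their main fit did not account for colon and ileum libraries coming from the same mice. In each test edgeR also drew on the spread of other genes.

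The libraries held 11571061 to 22984283 reads counted on genes, of which the ABC genes took 0.157% to 0.261%. Levels are given as CPM, the count of a gene scaled to a common library size by the trimmed mean of M values (TMM) over all 8 libraries. Ddx5 was at 771 and 706 CPM in WT colon and 367 and 355 CPM in DDX5ΔIEC colon, and at 700 and 700 CPM in WT ileum and 340 and 326 CPM in DDX5ΔIEC ileum. Summed over 6 epithelial markers, the level was 8270 to 15638 CPM, and lists of 5 macrophage, 5 endothelial, 5 B and plasma cell and 5 neuron and glia markers summed to at most 6.53 CPM each and 7 fibroblast and muscle markers to at most 12.9 CPM. The sum of 7 T cell and leukocyte markers was higher, at 8.77 to 49.3 CPM in the colon and 61.5 to 101.1 CPM in the ileum. DDX5ΔIEC colon replicate 1 stood apart from the other 3 colon libraries: Slc51a, the alpha subunit of the basolateral bile acid transporter, was at 1.27 CPM there against 18.2 to 22.2 CPM, and the ileal bile acid transporter Slc10a2 at 9.27 CPM against 39.0 to 65.4 CPM. Counts on Gm10801, Gm10800 and Gm21738, which resemble repeats, made up 4.04% and 3.93% of the counts in WT ileum, 0.226% and 19.5% in DDX5ΔIEC ileum and at most 0.261% in the colon. Calls of named members that were lost when 1 library was left out are given below. Between genotypes, these fits took the libraries of both tissues without the replicate block, unlike the main fit. With all 8 libraries kept, such a fit lost only the Abca12 call in the ileum. Both WT ileum libraries are rich in the repeat-like counts, so no WT ileum result can be given without such libraries. In fits without these repeat-like genes, the only call lost was that of Abca12 between genotypes in the ileum.

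The ABC genes spanned a wide range of levels. Between 33 and 35 members had 10 counts or more in a library. A total of 15 members passed the filter on low counts in no comparison between tissues and never exceeded 0.964 CPM. Among them were Abcb1b, the second drug-pumping P-glycoprotein gene of the mouse (0.138 to 0.912 CPM), Abcb11, the bile salt export pump of the liver (0 to 0.749 CPM), and Abcc9, a regulatory subunit of potassium channels (0 to 0.347 CPM). Abcb4, the phosphatidylcholine exporter of the liver, lay in the same range (0.105 to 0.749 CPM) but passed the filter. The bile salt and phospholipid pumps of the hepatocyte were thus near 0 in all 8 libraries.

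**Figure D1:**
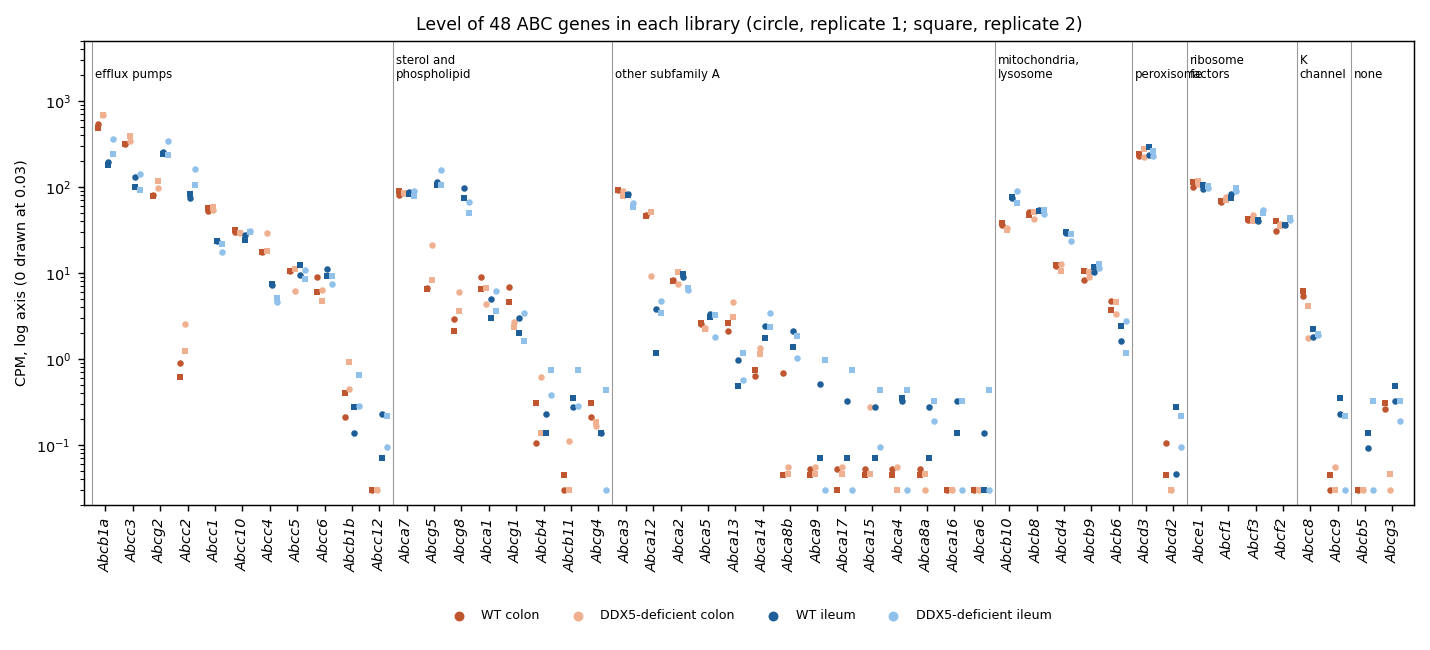
The level of 48 ABC genes in CPM, on a log axis, in the 8 libraries, grouped by role and ordered within a role by mean level. Colour marks tissue and genotype, the circle is replicate 1 and the square replicate 2, and values of 0 are drawn at 0.03. Abcb1a reaches 486 to 687 CPM in the colon, Abcc2, Abcg5 and Abcg8 are low in the colon and high in the ileum, and 7 of the 16 subfamily A genes stay under 1 CPM in all libraries.

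Levels of different genes were compared per kilobase of the gene length in the deposited tables. In WT colon the highest member per kilobase was Abcb1a, which encodes P-glycoprotein, the luminal pump for a broad range of drugs, at a mean of 94.0 CPM per kb. Abcc3, a basolateral pump for glucuronides and bile acids, came second in WT colon (55.4 CPM per kb), followed by Abcd3, a peroxisomal importer of fatty acids and bile acid precursors (35.5 CPM per kb). In WT ileum Abcd3 (40.3 ± 6.0 CPM per kb, SD, n = 2), Abcg5 (40.1 ± 2.3) and Abcb1a (34.4 ± 2.2) led, and Abcg2, the luminal pump known as the breast cancer resistance protein, followed (30.7 ± 1.1). The first of these do not differ beyond their spread, since Abcd3 and Abcg5 lay closer together than their SDs.

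By role, the 11 efflux pumps for drugs and conjugates made up 51.9% and 49.0% of the members' summed CPM per kb in WT colon, and 29.8% and 27.8% in WT ileum. The 8 sterol and phospholipid exporters took 5.17% and 5.30% in WT colon and 22.4% and 20.1% in WT ileum. In DDX5ΔIEC mice the efflux pumps took 55.4% and 55.7% in the colon and 37.2% and 30.9% in the ileum. In each tissue both of these shares lay above both WT shares. The 4 ribosome factors (Abce1, Abcf1, Abcf2 and Abcf3) took a mean of 15.9% to 17.7% in all 4 groups. The summed level over all members was 340 to 343 CPM per kb in WT colon, 379 to 395 in DDX5ΔIEC colon, 355 to 364 in WT ileum, and 430 and 357 in DDX5ΔIEC ileum. Shares and sums over the members were not tested.

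**Figure D2:**
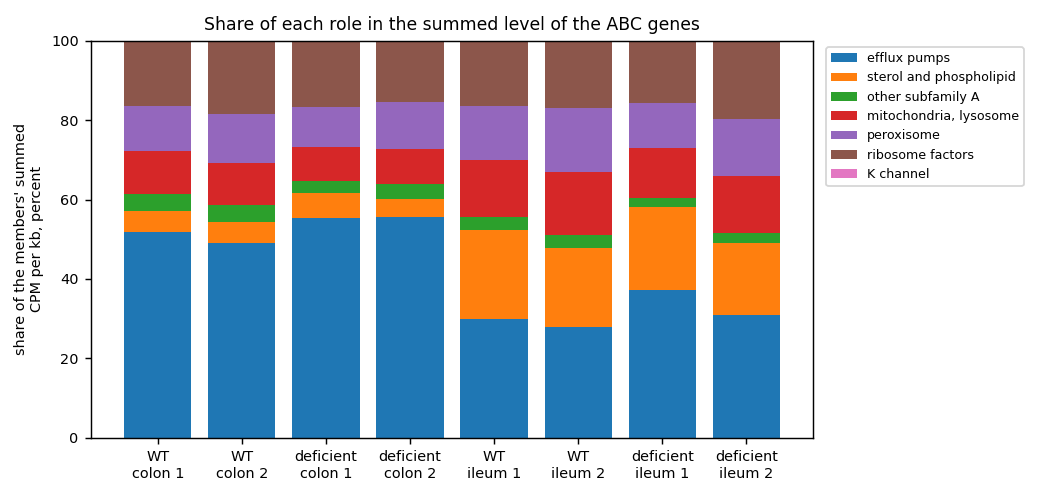
Stacked bars give the share, in percent, of each role in the members' summed CPM per kb, with 1 bar for each library. The efflux pumps take 49.0% to 55.7% in the 4 colon libraries and 27.8% to 37.2% in the 4 ileum libraries, and the sterol and phospholipid exporters take the larger share in the ileum.

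The first comparison asked how the repertoire of ABC genes differs between the ileum and the colon in WT IECs. Of 35 members tested, 18 differed at an adjusted p under 0.05, 10 of them higher in the ileum and 8 higher in the colon (edgeR's quasi-likelihood test over all 8 libraries, Benjamini-Hochberg adjustment over all genes). Of the 13101 protein-coding genes tested, 38.2% passed the same test, 19.8% as higher in the ileum and 18.4% as higher in the colon. The members' median log2 difference, ileum minus colon, was 0.05, and that of all genes tested −0.02. Both WT ileum libraries lay above both WT colon libraries in 15 members and below in 12, and 8 overlapped. Of all 16178 genes tested, 72.8% did not overlap. In bulk samples, more cells of a type and more RNA per cell cannot be told apart.

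Abcc2 had the largest difference. The gene lies on chromosome 19 (ENSMUSG00000025194.5, GRCm38, 43782192 to 43840740, plus strand) and encodes the luminal pump for glutathione and glucuronide conjugates. Its level was 0.893 and 0.616 CPM in WT colon and 74.7 and 83.0 CPM in WT ileum, and 2.54 and 1.23 CPM in DDX5ΔIEC colon against 160 and 104 CPM in DDX5ΔIEC ileum. Every ileum library lay far above every colon library. The difference was 105-fold in WT (log2 6.71, SE 0.37, adjusted p 7.50e-06) and 71.2-fold in DDX5ΔIEC (log2 6.15, SE 0.34, adjusted p 8.29e-06), both by edgeR. The 250 bases before its RefSeq start (GRCm38.p6, chr19:43782058-43782307, plus strand) are shown because this is the member with the steepest difference between tissues. The nuclear receptor hexamer AGGTCA is in capitals. The extent of the gene given above starts at 43782192, inside this stretch, and the hexamer lies past that start, so it is upstream of the RefSeq start only.
Abcc2: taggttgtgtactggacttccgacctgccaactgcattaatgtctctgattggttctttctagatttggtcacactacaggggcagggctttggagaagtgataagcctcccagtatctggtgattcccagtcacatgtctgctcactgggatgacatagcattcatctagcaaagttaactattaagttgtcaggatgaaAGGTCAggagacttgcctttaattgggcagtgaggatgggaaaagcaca
The hexamer AGGTCA, searched on both strands, stands in 16.2% of 32544 promoter windows of 300 bases, so its presence here is a description only.

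Abcg5 and Abcg8 encode the subunits of the dimer that returns plant sterols and cholesterol to the lumen. They lie on opposite strands of chromosome 17 (Abcg5, ENSMUSG00000040505.13, 84658234 to 84683011, minus strand, and Abcg8, ENSMUSG00000024254.15, 84676302 to 84700333, plus strand), and the extents of the genes overlap. Abcg5 has a RefSeq start at 84683011 and Abcg8 has 2, at 84676302 and 84683121. The 109 bases between the starts at 84683011 and 84683121 are shown (GRCm38.p6, chr17:84683012-84683120, plus strand), since both genes were far higher in the ileum. The stretch is upstream of Abcg5 and of the second start of Abcg8, and lies inside Abcg8 for its first start. Capitals mark the GATA factor hexamer AGATAA, read here on the minus strand.
Abcg5-Abcg8: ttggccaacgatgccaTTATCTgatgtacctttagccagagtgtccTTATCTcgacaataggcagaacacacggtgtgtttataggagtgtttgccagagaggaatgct
There are 2 matches in this stretch. The 300-base windows of Abcg5 and of the second start of Abcg8, which reach 50 bases past the start, hold 3 each, but these windows overlap and share matches. The window of the first start of Abcg8 holds 0. At least 1 match to AGATAA on either strand stood in 11.2% of the 32544 windows and 3 or more in 0.108%. The cutoff of 3 is the count found in these same windows, so this share is a description only.

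In WT, Abcg5 was at 6.62 and 6.51 CPM in the colon and 113 and 104 CPM in the ileum, a 16.6-fold difference (log2 4.05, SE 0.41, adjusted p 0.000155, edgeR). Abcg8 was at 2.89 and 2.11 CPM in WT colon and 96.8 and 74.5 CPM in WT ileum, a 34.4-fold difference (log2 5.11, SE 0.30, adjusted p 9.36e-06, edgeR). Both subunits were therefore high in the ileum and low in the colon in every WT library. In DDX5ΔIEC the ileum was 8.92-fold higher for Abcg5 and 12.5-fold higher for Abcg8, with adjusted p of 0.000418 and 3.76e-05 by edgeR. For Abcg5 this log2 difference was 3.16, and it was 3.97 without DDX5ΔIEC colon replicate 1, 2.62 without colon replicate 2 and 2.82 and 3.45 without ileum replicates 1 and 2.

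Abcg2 was at 79.9 and 79.0 CPM in WT colon and 257 and 244 CPM in WT ileum (log2 1.65, SE 0.18, adjusted p 0.000250, edgeR). Its partner in luminal drug efflux, Abcb1a (ENSMUSG00000040584.8, chromosome 5, 8660077 to 8748575, plus strand), went the other way, with 544 and 486 CPM in WT colon and 197 and 180 CPM in WT ileum (log2 −1.45, SE 0.19, adjusted p 0.000613, edgeR). Within a library the ratio of Abcb1a to Abcg2 counts was 5.90 to 7.08 in the 4 colon libraries and 0.737 to 1.03 in the 4 ileum libraries. The ratio is free of library scaling and did not overlap between tissues in either genotype. Of the 50-base words in the transcripts of Abcb1a, 17.6% also occur in other genes, chiefly Abcb1b and Abcb4, and how many reads this affected was not measured. Both of these genes were under 1 CPM. An antisense gene covers 10.1% of the exon bases of Abcb1a.

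Abcc3, Abcc1 and Abcc4, pumps of the ABCC group, were higher in the colon. Abcc3 was at 318 and 314 CPM in WT colon and 130 and 98.4 CPM in WT ileum (log2 −1.47, SE 0.22, adjusted p 0.00120, edgeR). Abcc1, an exporter of glutathione conjugates and leukotriene C4, was at 52.5 and 56.5 against 23.6 and 23.2 CPM (log2 −1.22, SE 0.12, adjusted p 0.000158, edgeR). Abcc4, which exports cyclic nucleotides and prostaglandins, was at 17.2 and 17.5 against 7.20 and 7.49 CPM (log2 −1.24, SE 0.22, adjusted p 0.00280, edgeR). For all 3 genes the 2 colon libraries lay above the 2 ileum libraries in both genotypes. Of 9 efflux pumps tested, 4 were higher in WT colon and 2 in WT ileum, and the median of their log2 differences was −0.24. The other 3 (Abcc5, Abcc6 and Abcc10) had log2 differences from −0.24 to 0.45 and did not pass.

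Among the sterol and lipid transporters outside the Abcg5 and Abcg8 pair, Abcg1, a cholesterol exporter known from macrophages, was higher in WT colon (6.83 and 4.53 CPM) than in WT ileum (2.95 and 2.01 CPM), with a log2 difference of −1.17 (SE 0.35, adjusted p 0.0335, edgeR). Abca1, which loads cholesterol onto apolipoprotein A-I, was at 8.88 and 6.51 CPM in WT colon and 4.98 and 2.98 CPM in WT ileum. Its groups did not overlap, but its adjusted p was 0.0722 by edgeR, and it passed with the mouse as a replicate block. Abca7, a phospholipid exporter, was level, at 77.8 to 89.3 CPM in all 8 libraries, with a log2 difference in WT of −0.01 and a 95% interval from −0.26 to 0.24.

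The widest difference toward the colon was that of Abca12 (ENSMUSG00000050296.14, chromosome 1, 71242276 to 71414910, minus strand), a lipid transporter best known from the skin, where it loads glucosylceramides into lamellar granules. It was at 46.8 and 45.8 CPM in WT colon and 3.78 and 1.18 CPM in WT ileum (log2 −4.14, SE 0.78, adjusted p 0.00405, edgeR), and the log2 difference was −5.29 without WT ileum replicate 1 and −3.61 without replicate 2. In DDX5ΔIEC colon replicate 2 it was at 51.1 CPM, like WT, but in replicate 1 at 9.11 CPM. That is the colon library in which Slc51a and Slc10a2 were also low, and the part of this library's makeup in the value was not tested. In DDX5ΔIEC ileum it was at 4.68 and 3.43 CPM, so that all colon libraries still lay above all ileum libraries. The log2 difference in DDX5ΔIEC was −2.89, and it was −3.65 without colon replicate 1 and −1.16 without colon replicate 2, where it did not pass (adjusted p 0.0861, edgeR). It did not pass without either DDX5ΔIEC ileum library either (−3.15 and −2.67).

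The other subfamily A and subfamily C genes that passed between tissues had low counts. Abca13, a large subfamily A protein, was at 2.10 and 2.64 CPM in WT colon and 0.969 and 0.486 CPM in WT ileum (log2 −1.64, and −2.28 without WT ileum replicate 1). Abcc8, the sulfonylurea receptor of hormone-secreting cells, was at 5.30 and 6.16 against 1.80 and 2.22 CPM (log2 −1.52, SE 0.36, adjusted p 0.0127, edgeR). Summed over 6 enteroendocrine markers, the level was 139 and 142 CPM in WT colon and 77.4 and 74.3 CPM in WT ileum. Of the 6 markers, 3 were called higher in WT colon and 0 in WT ileum. Sct lay the other way, at 5.20 and 5.15 CPM in WT colon and 12.1 and 12.4 CPM in WT ileum. The part of these cells in the Abcc8 difference was not tested.

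Abca14 was at 0.630 and 0.748 CPM in WT colon and 2.40 and 1.73 CPM in WT ileum (log2 1.58), and Abca8b at 0.683 and 0.0440 against 2.12 and 1.39 CPM (log2 2.35, SE 0.74). The counts of Abca8b in WT colon were 13 and 1, and its log2 difference was 5.11 without WT colon replicate 1 and 1.37 without replicate 2, where it did not pass (adjusted p 0.146, edgeR). Nor did it pass without either WT ileum library. Both WT ileum libraries are among those rich in repeat-like genes. In DDX5ΔIEC ileum replicate 1, which is not, Abca14 was at 3.37 and Abca8b at 1.03 CPM, above every colon library.

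Some of the intracellular transporters were higher in the ileum. Abcd4, which works in lysosomal cobalamin export, was at 11.98 and 12.2 CPM in WT colon and 29.3 and 30.0 CPM in WT ileum (log2 1.29, SE 0.15, adjusted p 0.000288, edgeR). Abcb10, a mitochondrial transporter needed for heme synthesis, was at 36.2 and 38.0 against 75.0 and 76.9 CPM (log2 1.03, SE 0.15, adjusted p 0.00101, edgeR). In both of these genes the ileum libraries lay above the colon libraries without overlap. Exons of an antisense gene cover 10.3% of the exons of Abcb10, and whether reads were counted by strand is not given in the sources used here.

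Abcb6, a porphyrin transporter, was at 4.67 and 3.74 CPM in WT colon and 1.62 and 2.43 CPM in WT ileum, with an adjusted p of 0.0542, and 55.2% of its exon bases also belong to an overlapping gene on the same strand, so its counts are uncertain. Abcd3 did not pass (log2 0.18, 95% interval −0.17 to 0.54), and neither did the 4 ribosome factors in WT, whose median log2 difference was −0.01. Abce1, which splits ribosomes after termination, was at 99.2 and 114 CPM in WT colon and 95.0 and 105 CPM in WT ileum, and Abcf1, which binds initiation factor eIF2, at 66.2 and 67.7 against 81.9 and 74.6 CPM.

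The same comparison in DDX5ΔIEC mice takes its group means from other libraries and other mice, within the same fit. It called 18 of 35 members, 11 higher in the ileum and 7 higher in the colon, where 39% of the protein-coding genes passed (20.7% and 18.4%). The 2 genotypes shared 16 members called in the same direction, 10 higher in the ileum and 6 higher in the colon, which is 16 of the 18 in each. Of all protein-coding genes, 4017 were called in the same direction in both genotypes, which is 80.3% of those called in WT and 78.6% of those called in DDX5ΔIEC. Abcc8 and Abcg1 passed in WT only. Abcf1 (log2 0.33) and Abca3, the phospholipid transporter of lamellar bodies (log2 −0.45), passed in DDX5ΔIEC only. Whether the difference between tissues depends on genotype is a separate test, given with the interaction.

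**Figure D3:**
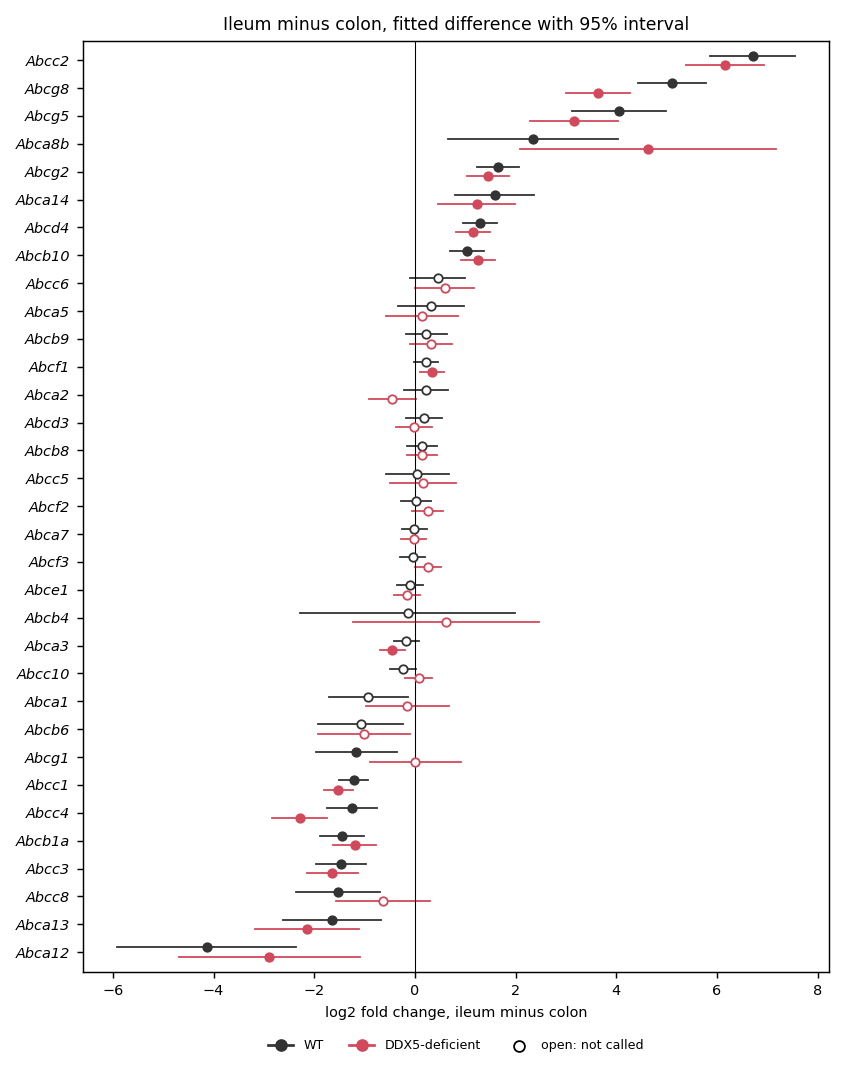
Fitted log2 difference, ileum minus colon, with its 95% interval for 33 of the 35 members tested, in WT (dark) and DDX5ΔIEC (red). Filled points passed an adjusted p under 0.05 and open points did not. Abcc2, Abcg8 and Abcg5 lie far to the right in both genotypes and Abca12 to the left, and Abcg1 and Abcc8 are open in DDX5ΔIEC.

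The second comparison asked which ABC genes depend on DDX5 in the ileum. A gene was called by the criterion of the study, an absolute log2 fold change of at least 0.5 with an unadjusted p under 0.05. Of 34 members tested, 6 passed, 3 lower and 3 higher in DDX5ΔIEC, where 6.61% of the protein-coding genes passed (2.83% lower and 3.78% higher). No member reached an adjusted p under 0.05, and the lowest was 0.112 (edgeR with the replicate number as a block), while 8 had an unadjusted p under 0.05. At that adjusted threshold 0.705% of the protein-coding genes passed. How many of all genes had an unadjusted p under 0.05 alone was not counted, so the 8 set no member apart. The median log2 difference was −0.01 for the members and 0, after rounding, for the protein-coding genes tested. Both DDX5ΔIEC libraries lay above both WT libraries in 6 members and below in 7, and 21 overlapped. Of all 14068 genes tested, 39.5% did not overlap, so groups that do not overlap are common and set no member apart.

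The 3 genes higher in DDX5ΔIEC ileum included 2 luminal efflux pumps. Abcb1a was at 197 and 180 CPM in WT and 357 and 240 CPM in DDX5ΔIEC, and both DDX5ΔIEC libraries lay above both WT libraries (log2 0.64, SE 0.16, p 0.0022, adjusted p 0.124, edgeR). Abcc2, with 74.7 and 83.0 against 160 and 104 CPM, showed the same order of libraries (log2 0.72, SE 0.18, adjusted p 0.126, edgeR). In both genes DDX5ΔIEC replicate 1 was the highest library. The sum of 5 ileum enterocyte markers was also highest in that library, at 6956 CPM against 3246 to 5112 CPM in the other 3 ileum libraries. Without it the log2 fold change was 0.34 for Abcb1a and 0.39 for Abcc2, and neither passed. Abcb1a also did not pass without WT replicate 2 (0.60, p 0.0520), nor Abcc2 without WT replicate 1 (0.66, p 0.0929). The part of the marker difference in these values was not tested. Abcg2, the other luminal drug pump, was at 257 and 244 against 345 and 237 CPM, which overlap (log2 0.20, 95% interval −0.17 to 0.56).

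Abca12 also passed in the ileum, with 3.78 and 1.18 against 4.68 and 3.43 CPM, but its groups overlapped. It did not pass without the replicate block (log2 0.66, p 0.242, edgeR) or without the repeat-like genes (log2 0.79, p 0.0559, edgeR). It was also lost without any single library, but those fits used both tissues and no replicate block. Such a fit lost the Abca12 call with all 8 libraries kept as well. In the same comparison 3 of 3 tuft cell markers were called lower, with a sum of 238 and 370 CPM in WT ileum and 153 and 203 CPM in DDX5ΔIEC ileum. The enteroendocrine markers were called higher in 4 of 6, with sums of 77.4 and 74.3 against 128 and 99.8 CPM. Their part in the ileum calls was not tested.

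The 3 genes lower in DDX5ΔIEC ileum were Abcg8, Abcc4 and Abca2. Abcg8 was at 96.8 and 74.5 CPM in WT and 67.1 and 49.9 CPM in DDX5ΔIEC (log2 −0.55, SE 0.13, p 0.0018, adjusted p 0.112, edgeR). In each replicate number the DDX5ΔIEC library was the lower one, and the groups did not overlap. Abcg8 did not pass without WT replicate 1 (log2 −0.35) or without DDX5ΔIEC replicate 2 (log2 −0.34), and the log2 fold change was −0.79 without DDX5ΔIEC replicate 1. Abcc4 was at 7.20 and 7.49 against 4.59 and 5.03 CPM (log2 −0.61, SE 0.23, adjusted p 0.312, edgeR), and Abca2, a lipid transporter of late endosomes and lysosomes, at 9.04 and 9.78 against 6.28 and 6.75 CPM (log2 −0.53, SE 0.20, adjusted p 0.322, edgeR). These groups did not overlap either, and neither gene passed when any 1 library was left out (log2 −0.55 to −0.66 for Abcc4 and −0.47 to −0.59 for Abca2). Abca3 was lower by less than the criterion asks, with 83.3 and 81.0 against 65.2 and 57.5 CPM (log2 −0.42, SE 0.14, p 0.010, edgeR).

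The same question in the colon gave 5 calls among 33 members, 2 lower and 3 higher in DDX5ΔIEC, where 6.64% of the protein-coding genes passed (4.01% lower and 2.64% higher). No member, and no gene of the 15362 tested, had an adjusted p under 0.05 in the colon. The lowest of a member was 0.264 (edgeR with the replicate block), while 7 members had an unadjusted p under 0.05. The number of all genes with such an unadjusted p was not counted, so the 7 set no member apart. The deleted gene itself, Ddx5, had a log2 fold change of −1.04 and an adjusted p of 0.0866 in this test. The lack of adjusted calls in the colon is thus no measure of a lack of effect. The median log2 difference was 0.01 for the members and 0, after rounding, for all genes tested. Both DDX5ΔIEC libraries lay above both WT libraries in 10 members and below in 7, and 16 overlapped. Of all genes tested, 44.6% did not overlap, so here too such an order sets no member apart.

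Abcg1 was at 6.83 and 4.53 CPM in WT colon and 2.65 and 2.37 CPM in DDX5ΔIEC colon (log2 −1.16, SE 0.23, p 0.0045, adjusted p 0.264, edgeR). Its groups did not overlap, and the log2 fold change was −1.25 without DDX5ΔIEC replicate 1 and −1.09 without replicate 2. Without WT replicate 1 it was −0.86 and did not pass (p 0.0788). Summed over 7 T cell and leukocyte markers, the level was 49.3 and 37.1 CPM in WT colon and 8.77 and 20.1 CPM in DDX5ΔIEC colon, with 5 of the 7 markers called lower. The 5 macrophage markers together stood at 1.49 to 2.84 CPM in the colon. The part of leukocytes in the Abcg1 value was not tested. Abcc8 was at 5.30 and 6.16 against 1.77 and 4.06 CPM (log2 −1.05, SE 0.30, adjusted p 0.337, edgeR). The enteroendocrine marker sum was 139 and 142 against 147 and 189 CPM, with 2 of the 6 markers called higher and 0 lower. Abcc8 did not pass without DDX5ΔIEC replicate 1 (log2 −0.50) or WT replicate 2 (log2 −0.85).

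The 3 members higher in DDX5ΔIEC colon, Abcg5, Abcg8 and Abcc2, are those with the largest excess in the ileum. Abcg5 was at 6.62 and 6.51 CPM in WT and 21.2 and 8.34 CPM in DDX5ΔIEC (log2 1.02, SE 0.35, adjusted p 0.378, edgeR). Abcg8 was at 2.89 and 2.11 against 5.91 and 3.56 CPM (log2 0.88, SE 0.23, adjusted p 0.319, edgeR), and Abcc2 at 0.893 and 0.616 against 2.54 and 1.23 CPM (log2 1.26, SE 0.34, adjusted p 0.322, edgeR). In all 3 the highest library was DDX5ΔIEC replicate 1. The sum of 5 ileum enterocyte markers was lowest in that library, at 173 CPM against 224 to 343 CPM in the other 3 colon libraries. Fabp2 alone gave 157 CPM of it. Among the same markers Mttp was highest there, at 3.59 CPM against 1.89 to 3.33 CPM, and Slc10a2 was lowest, at 9.27 CPM against 39.0 to 65.4 CPM. Of the 4 markers tested between genotypes in the colon, 0 were called lower and 1 higher, with a median log2 of 0.34. The intestinal peptide transporter Slc15a1 was highest in DDX5ΔIEC replicate 1 (195 CPM against 61.4 to 87.2 CPM), and Slc51a was lowest there (1.27 CPM against 18.2 to 22.2 CPM). The part of this library's makeup in the values of Abcg5, Abcg8 and Abcc2 was not tested. Without that library the log2 fold changes were 0.34 for Abcg5, 0.52 for Abcg8 and 0.72 for Abcc2, and none passed. None passed without WT replicate 2 either (1.15, 0.70 and 1.04), and Abcg5 did not without WT replicate 1 (1.17, p 0.0563). DDX5ΔIEC colon stayed at or below 21.2 CPM for Abcg5, where the lowest ileum library had 104 CPM.

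The 2 luminal drug pumps were higher in DDX5ΔIEC colon by less than the criterion asks. Abcb1a was at 544 and 486 CPM in WT and 682 and 687 CPM in DDX5ΔIEC (log2 0.40, SE 0.09, p 0.0085, adjusted p 0.303, edgeR), and Abcg2 at 79.9 and 79.0 against 96.4 and 117 CPM (log2 0.41, SE 0.10, p 0.012, adjusted p 0.319, edgeR). Both DDX5ΔIEC libraries lay above both WT libraries in each gene. In the same comparison 3 of 5 colonocyte markers were called higher, and 3 of 3 tuft cell markers lower. The sum of 4 goblet cell markers was 44296 and 49177 CPM in WT colon and 25868 and 39386 CPM in DDX5ΔIEC colon, but only 2 of the 4 were called lower. Zg16 was at 1657 and 1243 CPM in WT against 1805 and 1373 CPM. Muc2 was at 10680 and 13805 CPM in WT against 8832 and 19236 CPM, and both genes overlapped between genotypes. The part of cell makeup in the values of the pumps was not tested. Cdx2, a transcription factor of the intestinal epithelium, was called lower as well (log2 −0.54), with 211 and 207 against 120 and 174 CPM.

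Most members showed no call, and the intervals say how far that goes. Of the 28 members not called in the colon, 15 had a 95% interval that stayed within 0.5 on the log2 scale in both directions. Of the 28 not called in the ileum, 8 did. How many of all genes had such an interval was not counted. Abcc3 in the colon was at 318 and 314 CPM in WT and 341 and 385 CPM in DDX5ΔIEC (log2 0.19, 95% interval −0.05 to 0.43). Abce1 was at 99.2 and 114 against 109 and 116 CPM (log2 0.07, 95% interval −0.15 to 0.28). Of the protein-coding genes, 6.64% were called in the colon and 6.61% in the ileum, so a set of few genes can hold no call on those shares alone. None of the 6 mitochondrial and lysosomal, the 2 tested peroxisomal or the 4 ribosomal members was called in either tissue. In the ileum, Abcf3 came nearest among them, with 39.7 and 41.6 against 54.0 and 50.1 CPM (log2 0.36, SE 0.14, p 0.024, edgeR).

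**Figure D4:**
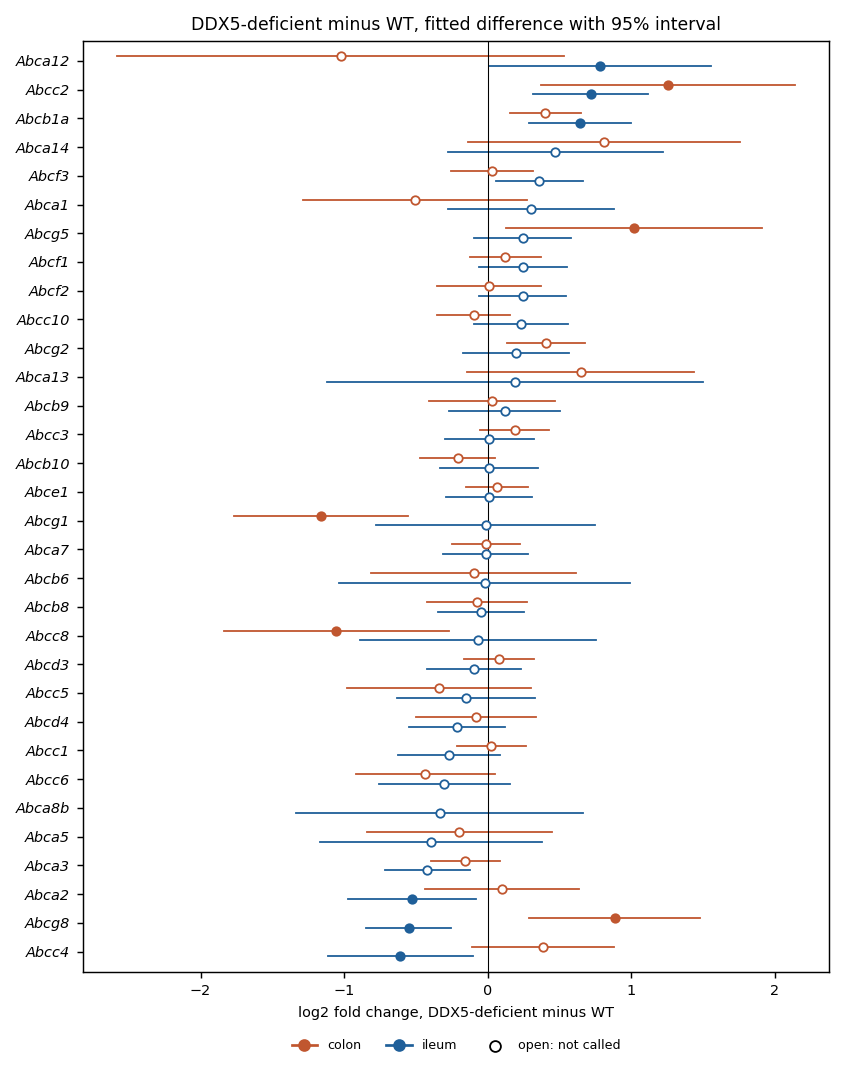
Fitted log2 fold change, DDX5ΔIEC minus WT, with its 95% interval in the colon (orange, 31 of 33 members tested) and the ileum (blue, 32 of 34 members tested). Filled points passed the criterion of an absolute log2 fold change of at least 0.5 with unadjusted p under 0.05, and none had an adjusted p under 0.05. Abcc2 is filled and to the right of 0 in both tissues, and Abcg8 is filled to the right in the colon and to the left in the ileum.

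Abcc2 and Abcg8 were the 2 members called in both tissues. Abcc2 was higher in DDX5ΔIEC in both. Abcg8 was higher in DDX5ΔIEC colon and lower in DDX5ΔIEC ileum, and the difference between its genotype effects was −1.47 on the log2 scale (SE 0.39, 95% interval −2.36 to −0.57, p 0.0051). Its adjusted p over all genes was 0.956, in a test that 0.0153% of the protein-coding genes passed. Over the alternatives the log2 difference ran from −1.79 to −1.07, and the adjusted p from 1.68e-05, with no filter on low counts, to 1.00. Abcc4 (log2 −1.04, p 0.0113) and Abca2 (log2 −0.66, p 0.0448) also had an unadjusted p under 0.05 for the interaction by edgeR, and no member passed after adjustment. How many of all genes had such an unadjusted p was not counted. The genotype effect on Abcg1 differed between tissues by 1.17 (95% interval −0.04 to 2.39) and that on Abcc8 by 0.89 (95% interval −0.38 to 2.16), so the calls in WT only or in colon only do not show that these genes differ between groups.

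The ratio of Abcg5 to Abcg8 was examined after their values were seen. Within a library the ratio of Abcg5 to Abcg8 counts was 1.17 and 1.40 in WT ileum and 2.35 and 2.10 in DDX5ΔIEC ileum. Both DDX5ΔIEC ratios lay above both WT ratios (means 1.29 ± 0.16 and 2.22 ± 0.18, SD, n = 2). An exact two-sided permutation test of 2 against 2 libraries cannot go below 0.333, the value found here, so the difference is a description. In the colon, where counts are lower, the ratio was 2.29 and 3.08 in WT and 3.60 and 2.35 in DDX5ΔIEC, which overlap. In the ileum Abcg8 was called lower (log2 −0.55), and Abcg5 was at 113 and 104 against 158 and 105 CPM (log2 0.24, 95% interval −0.09 to 0.58). Exons of each gene are covered by the other on the opposite strand over 3.02% of the bases in Abcg5 and 2.19% in Abcg8.

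**Figure D5:**
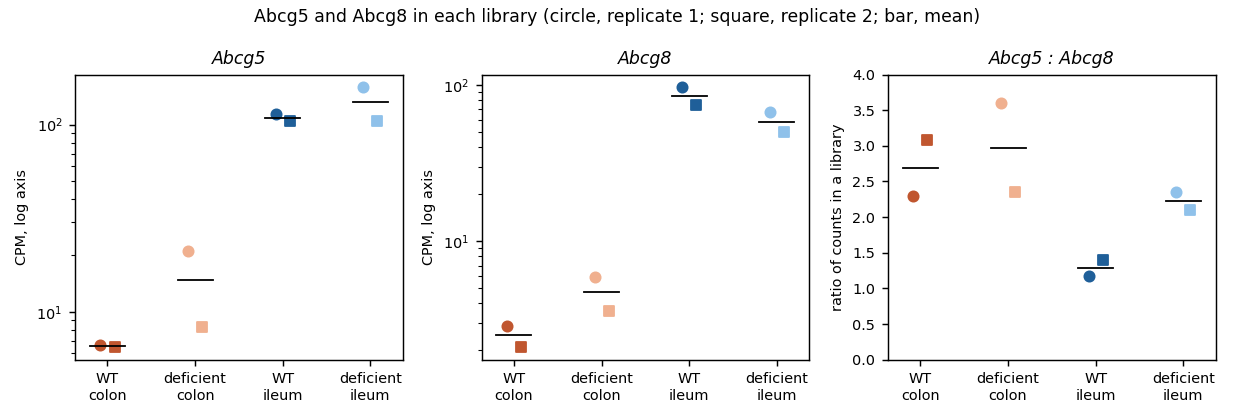
The first and second panels give CPM, on log axes, of Abcg5 and Abcg8 in the 8 libraries, and the third the ratio of their counts within each library, on a linear axis from 0. Bars are means of 2 libraries. In the ileum the ratio is 1.17 and 1.40 in WT and 2.35 and 2.10 in DDX5ΔIEC, while the colon ratios overlap.

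Some members are neighbours in the genome. On chromosome 5, Abcb1a, Abcb1b and Abcb4 follow each other on the same strand with gaps of 49.6 and 27.4 kb, yet Abcb1a stood at 180 to 687 CPM over the 8 libraries and the other two under 1 CPM. On chromosome 11, Abca8b, Abca8a, Abca9, Abca6 and Abca5 form a run on the minus strand, in which Abca5 reached 3.32 CPM, Abca8b 2.12 CPM and the other 3 at most 0.964 CPM in a library. On chromosome 17, Abca17 and Abca3 start head to head 0.881 kb apart, and Abca3 was at 57.5 to 92.8 CPM while Abca17 stayed at or below 0.749 CPM. On chromosome 7, Abcc6 and Abcc8 lie 74.2 kb apart, at 4.69 to 10.9 CPM and 1.77 to 6.16 CPM.

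RefSeq promoter windows were available for 38 of the 50 members. Besides AGATAA and AGGTCA, the windows were searched on both strands for TTTATG, a CDX site, CAAAGTCCA, an HNF4 site, and TATAAA. Of the 10 members higher in WT ileum, 7 had a window, and AGATAA stood in those of Abca14 and Abcg5 and in 1 of the 2 windows of Abcg8, and AGGTCA in those of Abcc2 and Abcg2. Of the 8 higher in WT colon, 4 had a window, with AGATAA in that of Abca12 and TTTATG in that of Abca13. TATAAA stood in windows of Abcg2, Abcg5 and Abcg8 among the members higher in WT ileum, in those of 0 members higher in WT colon, and in 13.6% of all windows. CAAAGTCCA stood in 1 window, that of Abcd3, and in 0.479% of all windows. These are matches of letters in a short window and say nothing about binding.

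Genes were also counted in lists of partners of the ABC genes. Of 13 genes that handle sterols beside the exporters, 10 were higher in WT ileum and 2 in WT colon. For this list and those that follow, the shares of protein-coding genes called were 19.8% and 18.4% between tissues in WT, 2.83% lower and 3.78% higher between genotypes in the ileum, and 4.01% lower and 2.64% higher in the colon. Npc1l1, the luminal cholesterol importer opposed by the Abcg5 and Abcg8 dimer, was at 0.263 and 0 CPM in WT colon and 503 and 486 CPM in WT ileum, and Soat2, which esterifies absorbed cholesterol, at 0.735 and 0.924 against 97.6 and 76.5 CPM. Scarb1, a lipoprotein receptor, was higher in the colon (log2 −3.75). In the ileum, 1 of the 13 was called between genotypes: Soat2 was lower in DDX5ΔIEC (78.9 and 41.1 CPM, log2 −0.59, adjusted p 0.156, edgeR). In the colon none of 11 tested was called.

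Of 20 tested genes of drug and conjugate handling, 8 were higher in WT ileum and 5 in WT colon. Between genotypes, 3 of 19 were called higher in DDX5ΔIEC ileum and 1 of 19, Slc15a1, in DDX5ΔIEC colon. Cyp3a11, a drug-oxidizing enzyme known to share substrates with P-glycoprotein, was at 1.38 and 1.66 CPM in WT ileum and 9.37 and 6.42 CPM in DDX5ΔIEC ileum (log2 2.39, SE 0.31, adjusted p 0.0081, edgeR). Cyp3a25, a related enzyme, was at 2.91 and 1.66 against 11.1 and 5.57 CPM (log2 1.86, SE 0.26, adjusted p 0.015, edgeR). Both DDX5ΔIEC libraries lay above both WT libraries in each gene, as for Abcb1a and Abcc2, where 39.5% of all genes tested did not overlap. Gsta1, a glutathione transferase, was the other of the 3 called higher in the ileum (log2 0.66).

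Of 14 nuclear receptors and partners known to act on ABC genes, 5 were higher in WT ileum, among them Nr1h3, the liver X receptor alpha (log2 1.07), and 2 in WT colon. Between genotypes only Cdx2 of the 14 was called, in the colon. The xenobiotic receptor Nr1i2, which is known to induce Cyp3a11 and Abcb1a, was at 79.9 and 74.7 CPM in WT ileum and 100.0 and 77.5 CPM in DDX5ΔIEC ileum, which overlap. Of the ABC superfamily genes with other symbols, Tap1 and Tap2, the peptide pump of antigen presentation, were called lower in DDX5ΔIEC colon (Tap1 63.7 and 62.7 against 25.6 and 37.9 CPM, log2 −1.03, and Tap2 log2 −0.51). The chloride channel Cftr was not (log2 0.30).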

How the data were processed

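The authors aligned reads of stranded, ribosome-depleted libraries to mm10 with STAR 2.6.1a, counted uniquely mapped reads per gene with featureCounts, and deposited whole-number counts per gene with each gene's length in bases, in 1 table per tissue. Columns of their normalized values and of their own DESeq2 1.18.1 comparison were not used. A gene listed in 1 table was counted as 0 in the other. Genes were filtered with filterByExpr (minimum count 10), scaled by TMM and tested with edgeR 4.0.16 in R 4.3.3, within tissue with the replicate number as a block for genotype, and over all 8 libraries for tissue and interaction. P-values were adjusted over all genes. The study's model held a harvest covariate, but which mice shared a harvest is not stated. Same-numbered libraries correlated at r = −0.00041 in the colon and 0.13 in the ileum between genotypes, and at 0.14 between tissues of 1 mouse. Members and lists were chosen with earlier results of these data known. Members named with values are those called and a set list of intestinal and leading members. Counts cover all members, of which 2 are not reported by name here. Positions are from GENCODE M21 and promoters from RefSeq (GRCm38.p6).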

Additional observations from a re-analysis of the deposited data

How the results depend on the processing

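Between tissues, the counts of members called stayed within 1.5 times under every alternative run: in WT, leaving out 1 library gave 8 higher in ileum and 6 to 7 higher in colon, and in DDX5ΔIEC 8 to 13 and 5 to 8. In WT the calls lost among the members named here were Abca14 and Abcg1 without colon replicate 1, Abca13, Abca8b and Abcc8 without colon replicate 2, Abca14, Abca8b, Abcc8 and Abcg1 without ileum replicate 1, and Abca13, Abca8b and Abcg1 without ileum replicate 2. In DDX5ΔIEC, Abca12 was lost without colon replicate 2 and without either ileum replicate, and Abca3, Abca8b, Abca14 and Abcf1 were each lost without at least 1 library. With the mouse as a replicate block, WT gained Abca1 and DDX5ΔIEC lost and gained none. Between genotypes the calls were less firm. In the colon, DESeq2 with the replicate block called 1 member higher in place of 3 (Abcc2 and Abcg8 were lost), an adjusted p under 0.05 left 0 lower and 0 higher, and leaving out 1 library gave 1 to 4 lower and 0 to 5 higher. In the ileum, DESeq2 with the replicate block called 1 lower in place of 3 (Abca2 and Abcc4 were lost) and 2 higher (Abca12 was lost), an adjusted p under 0.05 left 0 and 0, and leaving out 1 library gave 0 to 2 lower and 0 to 2 higher. The fit without the replicate block called 2 lower and 3 higher in the colon, and 3 lower and 2 higher in the ileum, where only Abca12 was lost. Abca12 was also lost in the ileum without the repeat-like genes (log2 0.79). For the interaction, no filter on low counts called 2 lower and 1 higher (Abcg5, Abcg8 and Abca12) in place of 0. No called value changed sign. The cause of these changes was not tested. With 1 library left out, the remaining one is assumed to vary like the other groups. The genotype fits with 1 library left out used both tissues without the replicate block, so they differ from the main fit in more than that library. With all 8 libraries kept, such a fit lost only Abca12 in the ileum. At this depth 15 members under 1 CPM had too few counts to be tested between tissues.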
